A study of Homo sapiens with 6 samples.

Results

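The genes of CTCF and of the cohesin complex were examined as a group of 10 genes: CTCF, SMC1A, SMC3, RAD21, STAG1, STAG2, NIPBL, WAPL, PDS5A and PDS5B. They are 10 of 47054 RefSeq genes of GRCh38.p14 on chromosomes 1 to 22 and X whose strand was known, and they were taken by name. A peak was assigned to a gene when its midpoint lay in the gene body or within 1 kb of it. Peaks with a midpoint within 1 kb of the gene start are called start peaks, and the others are called body peaks. By this rule the 10 genes held 46, 51 and 45 of 65859, 77184 and 64505 peaks in DMSO 1, 2 and 3. They held 47, 58 and 48 of 79801, 84501 and 70113 peaks in APH 1, 2 and 3.

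The samples are cultures of RKO, a human colon cancer cell line, kept at 5% O2 and 5% CO2. In 1 group of 3 samples the cells received aphidicolin (APH) at 0.2 µM for 16 h, and in the other group of 3 samples they received DMSO. Aphidicolin inhibits the replicative DNA polymerases, and at this low dose it slows replication forks without stopping the S-phase. Chromatin accessibility was measured by ATAC-seq, in which the transposase Tn5 inserts sequencing adapters where DNA is accessible, and the comparison asks how low replication stress alters accessibility. All samples come from 1 tumour line, and the methods describe growing cells with no sort by cell cycle phase.

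Cohesin is a ring-shaped protein complex that holds sister chromatids together from S-phase to mitosis and extrudes chromatin loops. SMC1A, SMC3 and RAD21 form the ring, and STAG1 or STAG2 binds it through RAD21. NIPBL loads cohesin and drives loop extrusion, WAPL releases cohesin from DNA, and PDS5A and PDS5B bind the ring and take part in its release and in its protection during replication. CTCF is a zinc finger protein that binds DNA and arrests the extruding ring, which places the anchors of many chromatin loops. The peaks described here lie at the genes that encode these proteins. They are not the binding sites of the proteins, and neither expression nor protein amount was measured in these files.

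The 250 bases before the gene start were read from the RefSeq promoter table of GRCh38.p14 for 9 of the 10 genes. Windows of 6 genes are shown, because WAPL and PDS5A had the largest and PDS5B the smallest change at a gene start with the window of 1 kb used here, and because CTCF, SMC3 and STAG2 differ in base composition and in signal. Each runs from 5′ to 3′ on the strand of its gene, and capitals mark a match on either strand to a motif searched for: GGGCGG for SP1 (CCGCCC on the other strand), CCAAT for the CCAAT box (ATTGG on the other strand) and TGACG for the short form of the CRE (CGTCA on the other strand). The windows lie at chr16:67562276-67562525 on the plus strand for CTCF, chr10:110567445-110567694 on the plus strand for SMC3, chrX:123960310-123960559 on the plus strand for STAG2, chr10:86521793-86522042 on the minus strand for WAPL, chr4:39977912-39978161 on the minus strand for PDS5A and chr13:32586202-32586451 on the plus strand for PDS5B.
CTCF: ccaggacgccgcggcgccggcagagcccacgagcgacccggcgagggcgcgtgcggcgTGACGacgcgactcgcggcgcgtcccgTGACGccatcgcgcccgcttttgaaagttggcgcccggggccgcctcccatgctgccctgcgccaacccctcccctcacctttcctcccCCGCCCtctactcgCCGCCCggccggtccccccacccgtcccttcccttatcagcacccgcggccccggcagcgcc
SMC3: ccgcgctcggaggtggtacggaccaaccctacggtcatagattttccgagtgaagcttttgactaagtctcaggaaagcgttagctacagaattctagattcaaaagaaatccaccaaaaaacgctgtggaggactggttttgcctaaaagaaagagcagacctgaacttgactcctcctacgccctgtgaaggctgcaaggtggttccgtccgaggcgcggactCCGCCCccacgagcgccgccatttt
STAG2: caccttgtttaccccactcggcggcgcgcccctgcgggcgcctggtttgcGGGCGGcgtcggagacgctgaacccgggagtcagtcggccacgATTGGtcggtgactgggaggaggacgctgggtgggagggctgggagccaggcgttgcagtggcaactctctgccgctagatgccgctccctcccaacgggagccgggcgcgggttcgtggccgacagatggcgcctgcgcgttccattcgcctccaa
WAPL: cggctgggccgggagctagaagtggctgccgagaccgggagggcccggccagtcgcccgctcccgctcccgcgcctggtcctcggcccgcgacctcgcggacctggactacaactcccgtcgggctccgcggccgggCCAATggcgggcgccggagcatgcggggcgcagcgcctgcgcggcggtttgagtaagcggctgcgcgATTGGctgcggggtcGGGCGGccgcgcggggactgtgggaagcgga
PDS5A: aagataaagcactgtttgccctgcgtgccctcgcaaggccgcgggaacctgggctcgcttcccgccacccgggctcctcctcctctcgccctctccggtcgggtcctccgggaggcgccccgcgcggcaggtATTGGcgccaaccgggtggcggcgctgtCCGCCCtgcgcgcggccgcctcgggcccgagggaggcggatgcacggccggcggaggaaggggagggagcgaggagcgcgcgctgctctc
PDS5B: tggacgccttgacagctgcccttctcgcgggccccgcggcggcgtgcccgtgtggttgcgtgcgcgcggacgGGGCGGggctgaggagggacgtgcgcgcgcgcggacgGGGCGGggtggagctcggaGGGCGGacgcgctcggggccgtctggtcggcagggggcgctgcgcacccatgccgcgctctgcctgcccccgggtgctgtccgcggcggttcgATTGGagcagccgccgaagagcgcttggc

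The windows of these genes were rich in G and C and in CG dinucleotides. Their median GC content was 74.4%, against 58% over 35116 promoter windows, and their median number of CG dinucleotides was 34 against 11. SMC3 had the lowest GC content, 52.8% with 17 CG dinucleotides, and PDS5B the highest, 78% with 41. The SP1 motif was found in 9 of 9 windows and in 42.6% of all windows. A CCAAT box was found at STAG1, STAG2, WAPL, PDS5A and PDS5B, 5 of 9 windows against 32% of all, and WAPL held 2 of them. The short CRE motif was found at CTCF, SMC1A and STAG1 (all windows, 21.2%), the ETS motif CCGGAAG at SMC1A and NIPBL (all windows, 8.52%), and the E2F motif, TTTCGCGC or else TTTGGCGC, at NIPBL (all windows, 0.968%). No match to the NRF1 motif CATGCGC, the YY1 motif AAGATGG or the TATA box TATAAA was found in the 9 windows, and these letters were present in 3.77%, 3.70% and 10.7% of all windows. These matches describe the sequence only. The windows were covered by peaks over all 250 bases in every sample, except that of NIPBL, where peaks covered between 241 and 250 bases.

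Each of the 10 genes had a start peak in all 6 samples, so the signal at the gene start could be compared for all of them. The start value is the mean of the deposited peak values weighted by peak length, in units of signal (extended alignments per 32-nt bin). All 10 genes had a lower mean start value in APH than in DMSO, with a median log2 change of -0.33. When samples were centred on the median of their start values, CTCF, SMC3, NIPBL and PDS5B turned higher. The lower means were not particular to these genes, since the median change over the 14659 genes with a start peak in every sample was -0.26. With limma on log2(value + 1) and Benjamini-Hochberg adjustment, none of the 10 genes passed an adjusted p of 0.05, and none of the 14659 genes did (0% called). At an unadjusted p under 0.05, 6 of the 10 genes (SMC1A, RAD21, STAG1, STAG2, WAPL and PDS5A) were lower, where 37.7% of all genes were (5525 lower, 101 higher). In 5 of the 10 genes all APH samples lay below all DMSO samples, where 39.7% of all genes showed this. Without APH 3, 1978 genes passed the adjusted threshold in limma, among them STAG2, WAPL and PDS5A (adjusted p = 0.042, 0.034 and 0.034). The p-values measure the spread between the samples of a group, which the study describes as independent experiments, although the labels do not say which samples belong to 1 experiment. The count of genes past the threshold depended on this, and a fit with the replicate number as a block is given in the last section. The depth of the libraries is unknown, and no source used here states whether they were reduced to equal read numbers before the signal was computed, so a change shared by most genes cannot be told apart from a difference in depth. Centring on the sample median here means on the median of the start values, which places a gene against other gene starts. After it the median change of the 10 genes was -0.07 and 6 of the 10 genes were below 0. The 6 genes at an unadjusted p under 0.05 became 0 of 10 after this centring, and 0 of 10 with quantile normalization or with centring on the chromosome median (limma). Over all genes 403 were then lower and 872 higher at this threshold after centring on the sample median, and 541 and 733 with quantile normalization.

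**Figure D1:**
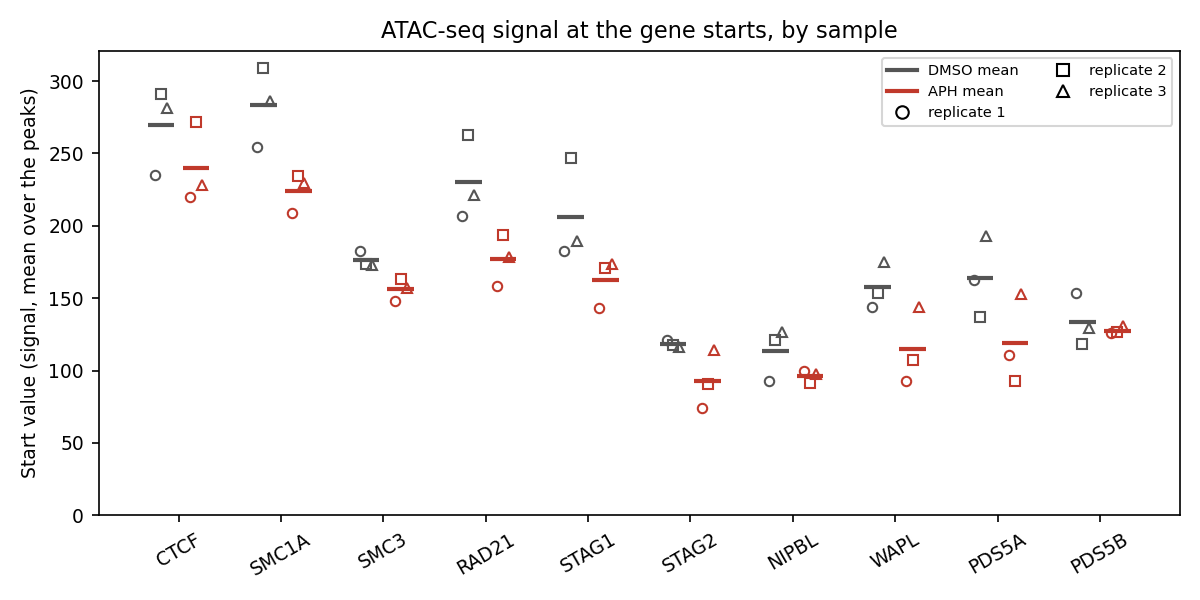
Start value of each of the 10 genes (vertical axis, signal from 0) in the 3 DMSO samples (grey) and the 3 APH samples (red). Symbols are replicates and horizontal bars are means. The APH mean is below the DMSO mean at every gene in the values as deposited (at CTCF, SMC3, NIPBL and PDS5B not after centring on the median of the start values), and the samples of the groups do not overlap at SMC1A, SMC3, RAD21, STAG1 and STAG2.

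CTCF (chr16:67562526-67639177, plus strand, gene identifier 10664) had start values of 235, 291 and 281 in DMSO and 220.0, 272 and 228 in APH. The groups overlapped, with means of 269 ± 29.7 and 239.9 ± 27.7 (SD, n = 3). The log2 change was -0.17 ± 0.13 (SE, limma, adjusted p = 0.32), and it was 0.10 after centring on the sample median. With 1 sample left out it ranged from -0.26 (without DMSO 1 or APH 2) to -0.11 (without DMSO 2 or APH 1). A smaller peak 769 bp downstream of the start was found in DMSO 1, DMSO 3 and APH 3 only, with values of 99.5, 98.7 and 93.3, and it lowered the mean of those samples. The main region alone, centred at -226 bp from the start, had values of 283, 291 and 347 in DMSO and 220.0, 272 and 278 in APH. There all APH samples lay below all DMSO samples (log2 change -0.26 ± 0.14, limma, adjusted p = 0.46). No body peak was found in CTCF in any sample over a gene of 76.7 kb. Of 1283 protein-coding genes between 60 and 100 kb long with a start peak in every sample, 7.40% had none.

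Among the ring subunits, SMC1A (chrX:53374149-53422728, minus strand, gene identifier 8243), the X-linked SMC subunit, had start values of 255, 309 and 286 in DMSO and 209, 234 and 229.6 in APH. No APH sample reached a DMSO sample, and the means were 224 ± 13.6 and 283 ± 27.4 (SD, n = 3), with a log2 change of -0.33 ± 0.11 (SE, limma, adjusted p = 0.073). For SMC3 (chr10:110567695-110606048, plus strand, gene identifier 9126), its partner in the ring, the start values were 183, 174 and 173 in DMSO and 148, 163 and 157 in APH. The groups did not overlap there either, the log2 change was -0.18 ± 0.10 (SE, limma, adjusted p = 0.22), and it was 0.09 after centring. In DMSO 2 a flanking start peak of 83.9 beside the main one of 202 lowered the mean of SMC3. With the highest start peak alone its log2 change was -0.25 ± 0.12 (SE, limma, adjusted p = 0.15). RAD21 (chr8:116845934-116874776, minus strand, gene identifier 5885), the kleisin that closes the ring, had start values of 207, 263 and 221 in DMSO and 158, 193 and 178 in APH. Its groups were separated too, and the log2 change was -0.38 ± 0.13 (SE, limma, adjusted p = 0.07). In DMSO 2, APH 1 and APH 2 this start signal was split into 2 peaks. With the highest start peak alone the values were 207, 335 and 221 in DMSO and 195, 241 and 178 in APH. The groups then overlapped, with a log2 change of -0.29 ± 0.18 (SE, limma, unadjusted p = 0.14, adjusted p = 0.25). RAD21 lies on a chromosome arm whose genes had a median start change of -0.24 over 317 genes. Centred on its chromosome, the change of RAD21 was -0.12.

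The genes of the STAG subunits had start values of different height. STAG1 (chr3:136336236-136752378, minus strand, gene identifier 10274), the longest of the 10 genes, had start values of 182, 247 and 189 in DMSO and 143, 171 and 174 in APH. Its paralogue STAG2 (chrX:123960560-124102656, plus strand, gene identifier 10735) had 121, 118 and 116 in DMSO and 74.3, 90.6 and 114 in APH. In both genes all APH samples lay below all DMSO samples, by 8.55 at STAG1 and by 1.96 at STAG2 between the nearest samples. The log2 changes were -0.33 ± 0.14 for STAG1 and -0.37 ± 0.16 for STAG2 (SE, limma, adjusted p = 0.11 and 0.12), and the difference between these changes was not tested. With 1 sample left out, STAG1 ranged from -0.42 to -0.20, the latter without DMSO 2, and STAG2 from -0.52 without APH 3 to -0.22 without APH 1. The separation at STAG2 was not found in its single regions. The main one, at -217 bp from the start, had values of 149, 135 and 134 in DMSO and 83.4, 97.4 and 135 in APH, and the one at -939 bp had 77.4, 87.9 and 90.2 in DMSO and 58.5, 79.1 and 72.0 in APH, with overlapping groups in both. STAG1 also had a flanking peak 892 bp downstream in DMSO 1, DMSO 3 and APH 3 only, and its main region, at -250 bp from the start, had values of 209.8, 247 and 220.3 in DMSO and 143, 171 and 203 in APH. For STAG2 the RefSeq table lists further starts at positions 123961312 and 123962058, and the strongest region of the gene was not at the first start but 2571 bp downstream, with values of 169, 227 and 184 in DMSO and 149.8, 176 and 174 in APH. At that region the groups overlapped (log2 change -0.21 ± 0.14, limma, adjusted p = 0.59).

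At the loader gene NIPBL (chr5:36876769-37066413, plus strand, gene identifier 25836) the start values were 92.5, 121 and 127 in DMSO and 99.9, 91.0 and 97.7 in APH. The groups overlapped through DMSO 1, and the log2 change was -0.22 ± 0.15 (SE, limma, adjusted p = 0.26) or 0.04 after centring. Leaving out 1 sample gave -0.36 (without DMSO 1) to -0.14 (without DMSO 3). NIPBL had the lowest mean start value of the 10 genes in DMSO, although STAG2 was lower in DMSO 2 and DMSO 3. A flanking peak at -743 bp from its start was found in DMSO 1 and APH 3 only. In the main region, 38 bp from the start, the values were 130.2, 159 and 149.5 in DMSO and 99.9, 112 and 131 in APH, and APH 3 lay above DMSO 1 (log2 change -0.36 ± 0.15, limma, adjusted p = 0.36).

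Among the release and PDS5 genes, WAPL (chr10:86435256-86521792, minus strand, gene identifier 23063) had start values of 144, 153 and 175 in DMSO and 92.9, 108 and 144 in APH. APH 1 and APH 2 lay well below the DMSO samples and APH 3 was level with DMSO 1, which gave a log2 change of -0.47 ± 0.16 (SE, limma, adjusted p = 0.073). The WAPL region at -91 bp from the start had values of 174, 189 and 213 in DMSO and 109, 128 and 170.4 in APH, and there the groups did not overlap (log2 change -0.51 ± 0.16, limma, adjusted p = 0.29, the lowest of the 12 start regions shared by all samples). PDS5A (chr4:39822863-39977911, minus strand, gene identifier 23244) had start values of 163, 137 and 193 in DMSO and 111, 92.9 and 153 in APH. The groups overlapped, and the log2 change of -0.48 ± 0.18 was close to that of WAPL (SE, limma, adjusted p = 0.09). Which of them was larger depended on the start window. Without APH 2 the change of PDS5A was -0.32. Its paralogue PDS5B (chr13:32586452-32778019, plus strand, gene identifier 23047) had a change of -0.06 ± 0.13 (SE, limma, adjusted p = 0.72), with start values of 154, 118 and 129.6 in DMSO and 126, 126 and 130.4 in APH. A weaker peak about 1 kb downstream of the PDS5B start counted as a start peak in DMSO 2, DMSO 3 and APH 3 and as a body peak in the other samples. The main region of PDS5B alone, at -95 bp from the start, had values of 154, 171 and 173 in DMSO and 126, 126 and 170.4 in APH, and its log2 change was -0.25 ± 0.15 (limma, adjusted p = 0.52). The start change of PDS5B was 0.20 after centring. With 1 sample left out it ranged from -0.145 (without DMSO 2) to 0.043 (without DMSO 1). The difference between PDS5A and PDS5B was not tested.

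**Figure D2:**
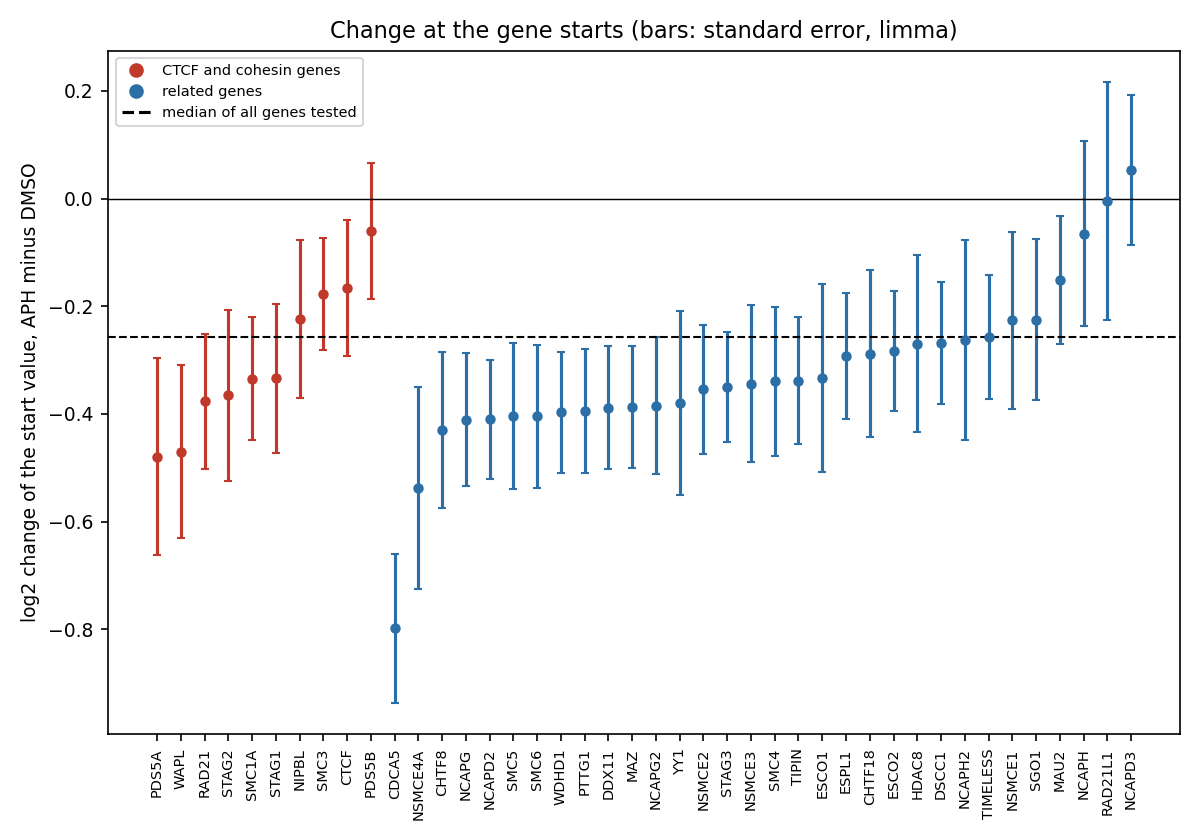
Log2 change of the start value, APH minus DMSO (vertical axis), for the 10 genes (red) and for 32 related genes of chromosome structure with a start peak in every sample (blue), sorted by change within each group. Points are limma estimates, bars are standard errors, and the dashed line is the median of all genes tested, -0.26. The 10 genes lie between -0.48 (PDS5A) and -0.06 (PDS5B), on both sides of that line.

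The flanking peaks that entered the start values were unevenly spread over the samples. Regions with a peak in exactly DMSO 1, DMSO 3 and APH 3 numbered 227 in the genome, and CTCF and STAG1 each held 1 of them. These are the 3 samples with the fewest peaks. The median value of those 227 regions was 49.6, against 23.7 to 28.4 in the other 19 combinations of 3 samples. A stronger region lay within 1 kb of 33.5% of them, against 3.88% to 17.6% in the other combinations. The part of peak calling in the start values of CTCF and STAG1 was not tested further, and the values of the main regions given above do not contain the flanking peaks. Nearly all of these genes share their start with a neighbour. A start on the opposite strand lay within 1 kb for 9 of the 10 genes, all but PDS5A, where 36.9% of 10811 protein-coding genes with a start peak in every sample had one. At SMC1A that neighbour is RIBC1, and at CTCF, STAG1, NIPBL, WAPL and PDS5B it includes a divergent transcript. The signal at these starts therefore cannot be assigned to either gene alone.

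In order of the mean start value in DMSO the genes were SMC1A, CTCF, RAD21, STAG1, SMC3, PDS5A, WAPL, PDS5B, STAG2 and NIPBL. SMC1A stood at percentile 87.5 of all genes tested, CTCF at 85.5, RAD21 at 77.6 and NIPBL at 33.0. The DMSO samples of neighbouring genes in this order overlapped in range in 9 of 9 pairs. Within samples, the first gene of a pair was higher in all 3 DMSO samples in 4 of the 9 pairs, SMC1A over CTCF, CTCF over RAD21, RAD21 over STAG1 and PDS5B over STAG2. In APH the order was CTCF, SMC1A, RAD21, STAG1, SMC3, PDS5B, PDS5A, WAPL, NIPBL and STAG2, and the samples overlapped in 7 of 9 neighbouring pairs. APH 1 was the lowest APH sample at 8 of the 10 genes, and APH 3 was the highest at 5. The gene nearest to CTCF by the Euclidean distance of log2(start value + 1) over the 6 samples was SMC1A (distance 0.269), followed by SGO1, which protects centromeric cohesin (0.307), and MAU2, the partner of NIPBL (0.343), among 41 other genes compared.

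The peaks of each gene were next compared region by region. Peaks of all samples that overlapped by 1 bp or more were merged, which gave 72 regions at the 10 genes out of 102770 in all. Of the 72 regions, 16 were start regions and 56 were body regions, and 12 of the former and 20 of the latter had a peak in every sample. The 12 shared start regions all had a lower mean in APH, with a median log2 change of -0.35 and DMSO means from 73.2 to 307. In 6 of them all APH samples lay below all DMSO samples. The share was 14.4% over the 50148 shared regions of the genome, which include regions away from gene starts. Over the start values of all genes it was 39.7%. Among the 20 shared body regions the median was -0.07, with 11 lower and 9 higher, and the median of all shared regions was -0.06. No shared region of the 10 genes passed an adjusted p of 0.05 in limma, and none of the 50148 did (0%), with 5062 lower and 1234 higher at an unadjusted p under 0.05. The change went with the level of the region. Over 20 groups of shared regions of increasing signal, the median change went from 0.08 in the weakest to -0.25 in the strongest, and the 12 start regions lay at middle to high levels on this scale. Their median change of -0.345 was below the lower quartile of the strongest group, -0.332, and this difference was not tested.

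**Figure D3:**
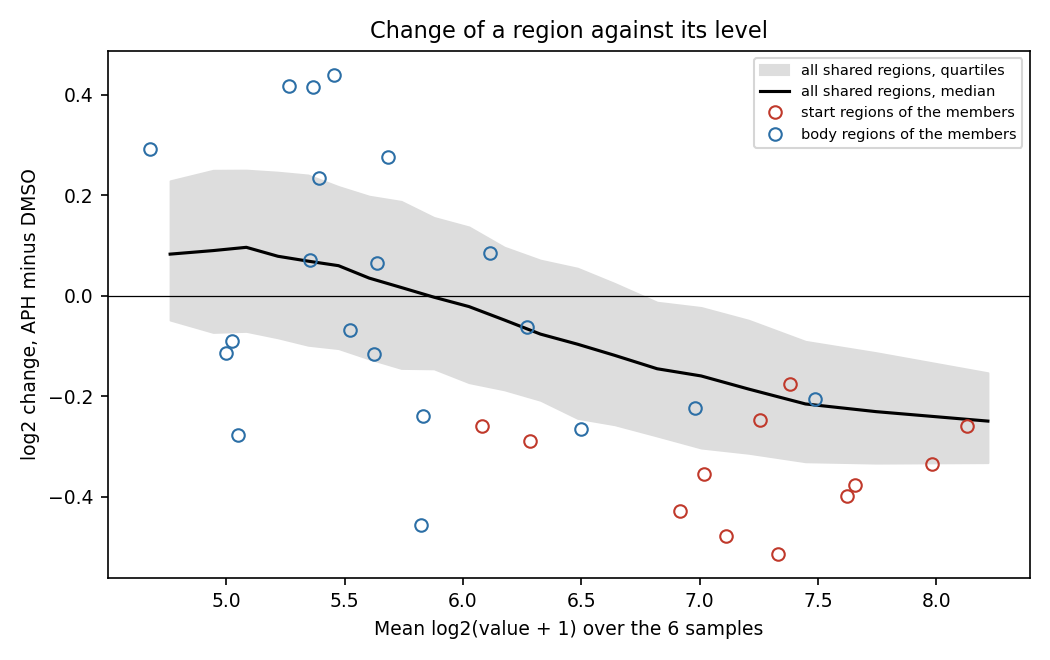
Log2 change of shared regions, APH minus DMSO (vertical axis), against their mean log2(value + 1) over the 6 samples (horizontal axis). The black line and grey band are the median and quartiles of all 50148 shared regions in 20 groups by level, red circles are the 12 start regions and blue circles the 20 body regions of the 10 genes. The line goes from 0.08 at the weakest to -0.25 at the strongest regions, and all 12 start regions are below 0.

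The body regions were also divided by their distance from the start, a division chosen after the values were seen. The 4 shared body regions within 5 kb of a start, at STAG2, PDS5A and PDS5B, all had a lower mean in APH, with a median log2 change of -0.24. Of these, the PDS5A region 1351 bp downstream had values of 132, 132 and 144 in DMSO and 123.1, 103 and 122 in APH. It was the 1 shared body region where all APH samples lay below all DMSO samples (log2 change -0.22 ± 0.14, limma, adjusted p = 0.54). Of the 16 regions farther away, 9 were higher and 7 lower, with a median of 0.07. Their DMSO means, 22.3 to 79.7, were below most of those at the starts.

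In 2 of the 20 shared body regions all APH samples lay above all DMSO samples, where 4.21% of the shared regions of the genome did. The first was in WAPL, 80.4 kb from the start, with values of 27.2, 42.1 and 36.5 in DMSO and 43.1, 46.9 and 50.3 in APH. Its log2 change was 0.42 ± 0.22 (SE, limma, adjusted p = 0.45), while the start region of the same gene had -0.51 ± 0.16. The second was in PDS5B, 70.4 kb from the start, with values of 41.8, 42.5 and 27.6 in DMSO and 56.5, 50.8 and 43.6 in APH and a log2 change of 0.44 ± 0.23 (SE, limma, adjusted p = 0.44). Neither passed the adjusted threshold. The other 3 shared body regions of PDS5B beyond 5 kb, at 53.3, 64.4 and 148 kb, overlapped between the groups, with log2 changes of -0.12, 0.06 and -0.06. In NIPBL the region 167 kb from the start had values of 29.2, 39.4 and 29.2 in DMSO and 48.2, 53.0 and 32 in APH, with APH 3 inside the DMSO range (log2 change 0.42 ± 0.24). Its other shared body region, 106 kb from the start, went the other way, with values of 29.2, 33.3 and 34.6 in DMSO and 33.1, 37.4 and 21.1 in APH and a log2 change of -0.11 ± 0.23, and APH 3 was the lowest of the 6 samples. SMC1A had 1 shared body region, 48.3 kb from its start near the end of the gene, with values of 51.8, 43.5 and 42.3 in DMSO and 51.4, 63.3 and 52.6 in APH.

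The remaining shared body regions, at RAD21, SMC3, STAG1, STAG2 and PDS5B, all overlapped between the groups. RAD21 had a region 23.4 kb from the start with values of 72.4, 71.2 and 56.6 in DMSO and 75.9, 70.0 and 65.7 in APH (log2 change 0.08 ± 0.19), and SMC3 had one at 33.0 kb with 45.7, 31.6 and 37.1 and 45.1, 49.6 and 39.5 (log2 change 0.23 ± 0.22). Both were slightly higher in the mean of APH, while their start values were lower (that of SMC3 not after centring). STAG1 had 3 such regions, at 408, 361 and 288 kb, with log2 changes of -0.24 ± 0.24, -0.07 ± 0.22 and 0.07 ± 0.24. The region at 408 kb, near the far end of the gene, had values of 62.1, 75.5 and 47.9 in DMSO and 46.6, 69.7 and 41.8 in APH, and DMSO 2 and APH 2 were the highest of their groups there. STAG2 had 5, of which those at 1104 and 2571 bp from the start had log2 changes of -0.26 ± 0.17 and -0.21 ± 0.14. Its regions at 16.3, 33.0 and 104 kb had -0.28 ± 0.25, -0.09 ± 0.21 and 0.29 ± 0.20, so that 4 of the 5 had a lower mean in APH and the farthest a higher one. At PDS5B the region 1023 bp from the start had values of 70.0, 51.2 and 77.4 in DMSO and 41.1, 46.0 and 56.1 in APH, and its log2 change of -0.46 ± 0.22 was the lowest of the 20 (limma, adjusted p = 0.41).

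A region of STAG1, 174 kb from the start, had a peak in all 3 APH samples and in no DMSO sample, with values of 19.7, 23.7 and 17.5. These are weak peaks, and an absent peak means a signal under the limit of the caller rather than no signal. Of all merged regions, 1.11% had a peak in all APH samples and no DMSO sample (1136 regions). The reverse, a peak in all DMSO samples and in no APH sample, was found in 189 regions and in none at the 10 genes. RAD21 had a region 22.8 kb from the start with a peak in DMSO 1 and in all APH samples, with a value of 36.0 in DMSO 1 and of 34.0, 38.5 and 33.8 in APH. In NIPBL the region 2118 bp from the start was found in DMSO 2 (75.7) and in all APH samples (81.4, 64.0 and 72.3). STAG1 and STAG2 each held 1 region with peaks in all APH samples and in DMSO 1 and DMSO 2, at 146 and 73.5 kb. Their values were 25.5 and 24.4 in DMSO and 32.6, 28.0 and 30.5 in APH at STAG1, and 20.4 and 25.7 in DMSO and 22.9, 30.7 and 25.3 in APH at STAG2. NIPBL held 1 with peaks in all APH samples (30.7, 24.7 and 20.6) and in DMSO 2 and DMSO 3 (28.4 and 26.4), at 52.5 kb. Going the other way, SMC3 had a region 7 kb from its start with peaks in all DMSO samples (35.2, 34.3 and 36.2) and in APH 1 and APH 2 (34.8 and 28.7). The start region of NIPBL 678 bp downstream likewise had peaks in all DMSO samples (72.8, 71.8 and 95.8) and in APH 2 and APH 3 (55.4 and 66.4).

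**Figure D4:**
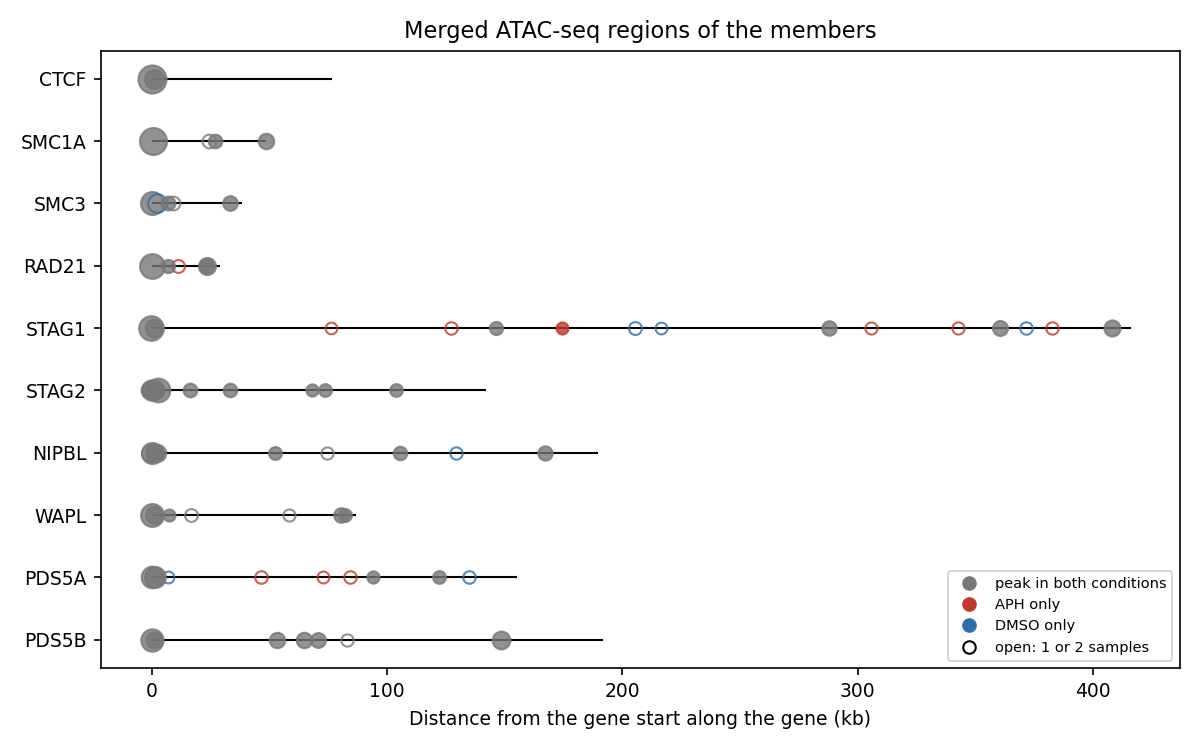
Merged regions of the 10 genes by distance from the gene start (horizontal axis, kb), with 1 line per gene drawn over its length. Circle size increases with the mean value, colour shows whether peaks were found in both conditions (grey), APH only (red) or DMSO only (blue), and open circles are regions found in 1 or 2 samples. The strongest region lies at the start in every gene but STAG2, where it lies 2571 bp downstream. CTCF has no region in its body, and the filled red circle is the STAG1 region found in all 3 APH samples.

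Over the whole body the groups overlapped at 8 of 9 genes. The body value, the length-weighted mean of the body peaks of a gene, could be compared for 9 genes, all but CTCF. Its median log2 change was -0.10 over the 9 genes and -0.08 over 13598 genes. SMC1A had body values of 41.4, 43.5 and 37.1 in DMSO and 45.7, 47.8 and 52.6 in APH, and all APH samples lay above all DMSO samples (log2 change 0.25 ± 0.16, SE, limma, adjusted p = 0.56). This pattern was found at 2.79% of all genes. The reverse was found at none of the 9 genes and at 15.1% of all. The separation at SMC1A was not found in its 1 shared body region, where DMSO 1 had 51.8 and APH 1 had 51.4. Weaker peaks found in some samples only also entered its body value. NIPBL had body values of 29.2, 39.1 and 28.0 in DMSO and 47.6, 40.9 and 35.2 in APH, and WAPL had 26.8, 30.8 and 27.4 and 29.8, 35.7 and 32.8. These were the other genes with a higher mean in APH (log2 change 0.36 and 0.20), with overlapping groups. Both values turned negative when start peaks were taken within 500 bp of the start, -0.09 for NIPBL and -0.11 for WAPL. With the highest body peak alone they were 0.75 for NIPBL and 0.42 for WAPL. The other 6 genes had lower means, from -0.29 at PDS5A to -0.06 at PDS5B. Of these, 4 turned higher under an alternative. With an equal number of peaks in each sample PDS5A was 0.28 and SMC3 0.04, RAD21 was 0.08 with the highest peak or with peaks at or above the median, and PDS5B was 0.01 after centring and 0.05 with a start window of 2 kb. Without DMSO 2 or APH 3 PDS5B also turned higher. With an equal number of peaks STAG1 was -0.08 and RAD21 -0.09. The value of PDS5A was -0.07 without APH 2 and -0.14 without DMSO 1, that of STAG1 was -0.14 without APH 3, that of STAG2 was -0.12 without DMSO 3 and -0.32 without DMSO 1, and that of SMC3 ranged from -0.19 (without DMSO 3) to -0.0032 (without DMSO 2). With limma none of the 9 genes passed an adjusted p of 0.05, where 1 gene of 13598 did (0.00735%), and at an unadjusted p under 0.05 there were 1307 genes lower and 233 higher.

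The start value was also divided by the body value of the same gene and sample. A factor that multiplies all values of a sample cancels in this ratio, but which weak peaks enter the body value can still differ between samples. This measure was chosen after the data were seen. Over the 9 genes its median log2 change was -0.18, and over the 7074 genes with peaks of both kinds in every sample it was -0.16. In SMC1A, NIPBL and WAPL all APH samples lay below all DMSO samples, 3 of 9 genes where 14.1% of all genes did. At SMC1A the start was, as a geometric mean, 6.96 times the body in DMSO and 4.60 times in APH (log2 change -0.60 ± 0.17, limma, adjusted p = 0.34). WAPL had ratios of 5.55 and 3.46 (log2 change -0.68 ± 0.21, adjusted p = 0.36) and NIPBL of 3.54 and 2.35 (log2 change -0.59 ± 0.22, adjusted p = 0.4), both with limma. With a start window of 500 bp the groups overlapped at NIPBL and WAPL (log2 change -0.27 and -0.41) and did not at SMC1A. The groups also overlapped at NIPBL with a window of 2 kb and at WAPL when each sample was limited to the same number of peaks. PDS5B had 2.45 in both groups. None of the 9 genes and none of the 7074 genes passed an adjusted p of 0.05 (0%), with 680 lower and 115 higher at an unadjusted p under 0.05.

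No difference in the number of peaks at a gene passed the exact test. Start peaks over the 10 genes numbered 16, 16 and 16 in DMSO and 13, 14 and 17 in APH, and body peaks numbered 30, 35 and 29 in DMSO and 34, 44 and 31 in APH. Out of the peaks of a whole sample, those at the 10 genes made up 0.0698%, 0.0661% and 0.0698% in DMSO and 0.0589%, 0.0686% and 0.0685% in APH. STAG1 had 4, 6 and 4 body peaks in DMSO and 5, 9 and 7 in APH, on average 4.67 against 7 per sample (two-sided exact permutation test, p = 0.2). With its start peaks the difference was between 6, 7 and 6 in DMSO and 6, 10 and 9 in APH, 2 more on average (two-sided exact permutation test, p = 0.4). This difference ranged from 1.17 without APH 2 to 3.17 without APH 1. It turned to -0.33 when each sample was limited to the same number of peaks and to -0.67 with peaks at or above the median value. RAD21 had 4, 4 and 2 peaks in DMSO and 5, 6 and 4 in APH (two-sided exact permutation test, p = 0.3). Over the alternatives the RAD21 difference ranged from 0.33, with peaks at or above the median value, to 2.17. For the remaining 8 genes the exact test gave p from 0.7 to 1, and 3 samples against 3 cannot give a p below 0.1. As a share of the peaks of the sample, the body peaks of the 5 genes with a mean of at least 3 had log2 changes from -0.17 (STAG2) to 0.31 (STAG1). None passed an adjusted p of 0.05 in limma, and none of 4401 genes did (0%), with 202 lower and 179 higher at an unadjusted p under 0.05.

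**Figure D5:**
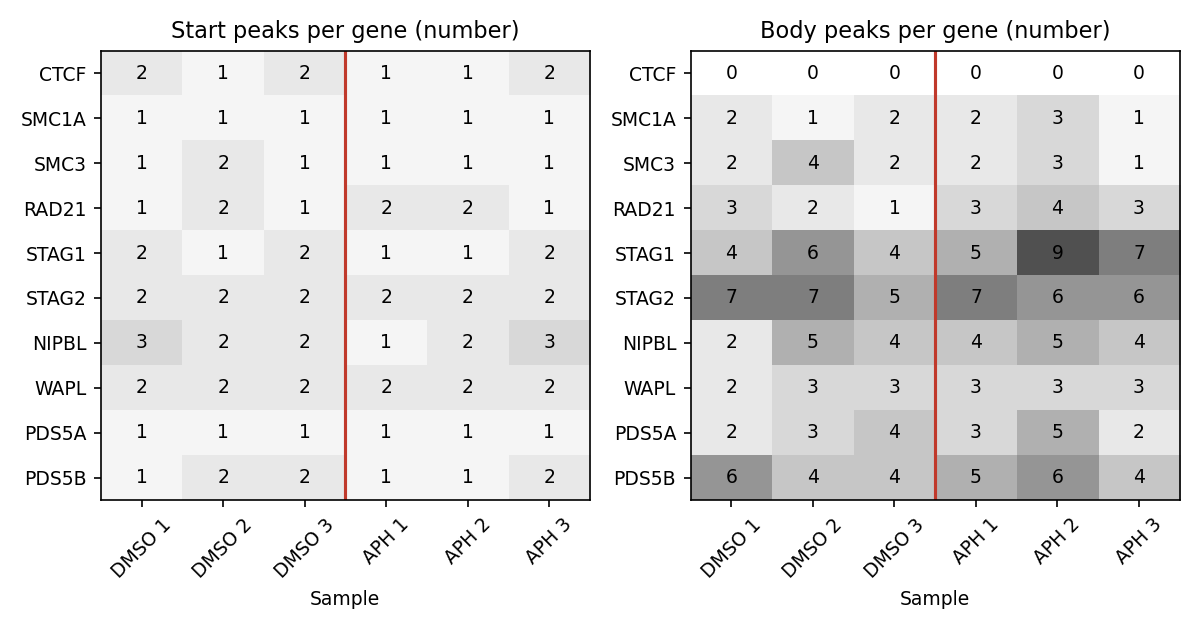
Number of start peaks (left) and body peaks (right) of each gene (rows) in each sample (columns), with darker shading for larger numbers and a red line between DMSO and APH. CTCF has 0 body peaks in every sample, and STAG1 has 4 to 6 in DMSO and 5 to 9 in APH.

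Per length, body peaks were most frequent at SMC3 and RAD21, the shortest of the 10 genes. In DMSO the mean number of body peaks per 100 kb was 6.95 at SMC3 and 6.93 at RAD21, against 1.12 at STAG1. The median of the 10811 protein-coding genes with a start peak in every sample was 2.35. In APH the values were 5.21 at SMC3, 11.6 at RAD21 and 1.68 at STAG1. Of the 72 merged regions, 55 had peaks in both conditions, 10 in APH only and 7 in DMSO only. The share found in APH only was 13.9%, against 18.5% of all merged regions, and the share found in DMSO only was 9.72%, against 7.03%. Single samples accounted for 13 of these regions, 6 in APH and 7 in DMSO. Whether a body region lies in an exon or an intron was not assigned, because exon annotation of this build was not used here.

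Start changes were also computed for related genes of chromosome structure. The list of 36 genes covered cofactors of cohesin, its meiotic subunits, condensin, the SMC5 and SMC6 complex and other architectural proteins, and 32 of them had a start peak in every sample. No start peak at the RefSeq start was found in any sample for SMC1B and REC8, which are meiotic cohesin subunits, CTCFL, the germline paralogue of CTCF, and SMC2, a condensin subunit. The meiotic subunits STAG3 and RAD21L1 did have a start peak in all 6 samples. Their DMSO values were 248, 229 and 256 at STAG3 and 28.1, 28.1 and 40.6 at RAD21L1. Among the 32 genes the mean was lower in APH in 31, all APH samples lay below all DMSO samples in 20 (39.7% of all genes), and the median log2 change was -0.34. After centring on the sample median 24 of the 32 genes were lower and 8 higher, with a median of -0.08. Sororin (CDCA5), which protects cohesin from WAPL, had the lowest change, with start values of 188, 244 and 170.3 in DMSO and 113, 113 and 115 in APH. All APH samples lay below all DMSO samples there (log2 change -0.80 ± 0.14, SE, limma, adjusted p = 0.052). The condensin II subunit NCAPD3 had the highest, with a log2 change of 0.05 ± 0.14. None of the 32 genes passed an adjusted p of 0.05 in limma, and 22 were lower at an unadjusted p under 0.05 (37.7% of all genes). After centring, CDCA5 was the 1 gene lower and NCAPD3 the 1 gene higher at this threshold.

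The labelled cell type was checked by start peaks, which are not expression. Of 9 markers of colon epithelium, EPCAM, KRT8, CDX2 and LGR5 had a start peak in every sample, KRT18 and KRT20 had one in some samples, and CDH1, VIL1 and CDX1 had none in any sample. Of 6 markers of other cell types with a gene start in the table, COL1A1 had a start peak in every sample and the other 5 had none.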

How the data were processed

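The files hold ATAC-seq peaks of 6 RKO cultures, 3 treated with DMSO and 3 with aphidicolin. The authors aligned reads with BWA 0.7.12 to hg38, per the submitters' processing notes and the methods, removed duplicates, extended alignments to 200 bp and counted them in 32-nt bins. Peaks were called in each sample with MACS2 2.1.0, and blacklisted peaks were removed. The deposited value of a peak is a signal, the mean coverage of the bins under it. Values multiplied by the number of bins were whole, within the rounding of the decimals, for 99.99% of the 61155 to 82649 peaks per sample in which this was checked (shorter than 1 kb), so the signal was not multiplied by a scaling factor. No source used here states whether read numbers were equalised beforehand. Read depth is unknown, and no counting interval is given.

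Genes, gene starts and promoter sequences came from RefSeq GRCh38.p14. The strand of 27196 genes came from the RefSeq promoter table and that of 19858 genes, RAD21 included, from GENCODE by symbol. Start values, body values and values of merged regions were compared with limma 3.58.1 (R 4.3.3) on log2(value + 1) with an intensity trend, for features with a peak in every sample, with Benjamini-Hochberg adjustment over all features at 0.05. Body peak numbers were compared in the same way as a share of the peaks of the sample, and single numbers by an exact permutation test (two-sided) on the difference between means. Other steps used Python 3.11.15 (pandas 2.3.3, numpy 2.4.6, scipy 1.17.1, matplotlib 3.10.9). Simulated data with known changes were used to test the limma fits.

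All 10 genes were to be named, with body regions singly where all 3 samples of 1 condition had a peak, the lowest and highest of the related genes and those without a start peak, and the 3 genes nearest to CTCF. The genes and lists were chosen with earlier results of these data known. Alternatives covered centring, filters, pseudocounts, peak thresholds, start windows, a replicate block and each sample left out in turn. The correlation of deviations from the group means between samples of the same number was -0.01, 0.48 and 0.52 for numbers 1, 2 and 3. In all, 4 of 6 samples correlated best with their own number. Samples numbered 2 and 3 thus varied together across the groups, and those numbered 1 did not. The labels tie no numbers to an experiment, and the numbers were not taken as pairs in the reported test. No promoter sequence of RAD21 was used here.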

Additional observations from a re-analysis of the deposited data

How the results depend on the processing

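The start value of CTCF, SMC3, NIPBL and PDS5B changed sign under some alternatives, and that of the other 6 genes under none that was run. Under centring on the sample median, quantile normalization and centring on the chromosome median, the log2 change became 0.0978, 0.111 and 0.114 at CTCF, 0.0874, 0.0945 and 0.101 at SMC3, 0.0404, 0.0271 and 0.0348 at NIPBL and 0.204, 0.190 and 0.197 at PDS5B. With 1 sample left out PDS5B ranged from -0.145 to 0.0429, the highest without DMSO replicate 1. The cause was not tested. The body value turned at PDS5B (0.0108 when centred, 0.0522 with a start window of 2 kb, and -0.264 to 0.105 with 1 sample left out, above 0 without DMSO replicate 2 or APH replicate 3), at SMC3 (0.0378 with an equal number of peaks), at PDS5A (0.281, same setting), at RAD21 (0.0849 with peaks at or above the median and with the highest peak) and, with a start window of 500 bp, at NIPBL (-0.0903) and WAPL (-0.106).

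The count of start values past the adjusted threshold, 0 in the reported test, was 261 with protein-coding genes only, 18 with a peak in at least 1 sample and 1056 with peaks at or above the median value. Leaving out 1 sample gave 0 to 1978 genes. The highest count was without APH replicate 3, where STAG2, WAPL and PDS5A passed (limma, adjusted p = 0.042, 0.034 and 0.034). For body values the count of 1 became 0 without an intensity trend, with quantile normalization and with a start window of 2 kb, 25 with a peak in at least 1 sample and 2 with the highest peak, and was 0 to 3 with 1 sample left out. For body peak numbers the count of 0 became 30 with an equal number of peaks, 1 with peaks at or above the median, 22 without division by the peaks of the sample and 10 with a mean of at least 1 body peak, and was 0 to 7 with 1 sample left out. For shared regions it was 1 when centred and 0 to 2 with 1 sample left out.

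The replicate number as a block, although the numbers were not shown to pair the samples, moved the count of start values to 7299 (133 higher, 7166 lower), among them SMC1A, RAD21, STAG1, STAG2, WAPL and PDS5A. With the block the count was 6603 for regions, 2 for body peak numbers and 1 for body values. The difference in the number of peaks per gene, APH minus DMSO, turned at STAG1 (-0.333 with an equal number of peaks, -0.667 at or above the median), NIPBL (-0.667) and PDS5A (-1.33), both with an equal number. The ratio of start to body, with settings chosen after seeing the data, changed sign at PDS5B (-0.134 and -0.315 with start windows of 500 bp and 2 kb, -0.0288 with an equal number of peaks, -0.253 to 0.189 with 1 sample left out). With 1 sample left out it ranged from -0.240 to 0.124 at STAG1, from -0.186 to 0.00439 at SMC3 and from -0.337 to 0.0301 at PDS5A, and 0 to 1 genes passed in all. With 1 sample left out the peak number difference ranged from -0.167 to 0.833 at SMC1A, from 1.17 to 3.17 at STAG1, from -0.167 to 1 at NIPBL and from -0.5 to 1 at PDS5A.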
